A study of Homo sapiens with 6 samples.

Results

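A set of 51 genes was nearly absent from ME-180 cells labelled as p63 knockdown and was present in SiHa cells, which hold almost no TP63 transcript. They were chosen by 3 counts per gene: at least 100 in the ME-180 control library, at most 3 in the ME-180 library labelled knockdown and at least 100 in the SiHa vector library. Names starting with KRT, COL, LAM, ITG, SLC, CXCL or IL1 were left out. The 51 came from 7587 genes with a row in both the ME-180 and the SiHa table, each gene being represented by its transcript with the most ME-180 counts. Because these 3 libraries chose the genes, their counts are a description of the set and not a finding.

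The TP63 gene encodes p63, a relative of p53 that binds DNA and keeps the basal layer of stratified epithelia such as the cervical squamous epithelium. It activates genes of basal keratins, cell adhesion and epithelial identity, partly through other epithelial transcription factors. Many epithelial genes are also driven by factors other than p63, among them ETS-family members, and cell lines of one tissue can keep an epithelial programme with or without p63.

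The RNA came from 2 lines of human cervical carcinoma cells. Each group had 1 library. The line ME-180 gave the library labelled knockdown (column shp63) and its control (plko), and SiHa gave the p63 overexpression library and its vector control. The labels do not say how many hairpins or clones were used, how long p63 was reduced or which p63 isoform was overexpressed. The 2 other samples of the series, a p63 ChIP and its input, were not analysed here. With no replicates there is no test of any difference, and 95% intervals cover counting error only. Values are counts per RefSeq transcript or CPM, counts per 1000000 counts of the rows in that library's table. The tables held 10046579 counts for the library labelled knockdown, 10804272 for the ME-180 control, 13690639 for SiHa overexpression and 14207637 for SiHa vector. The tables do not cover the same genes, so these sums are not the full depth and CPM is compared within a line first.

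TP63 itself, by its transcript NM_001114980.1, had 6 counts in the library labelled knockdown and 5619 in the ME-180 control. In SiHa it had 179 counts with overexpression and 7 with the vector. The level in SiHa thus stayed below that of the ME-180 control also with overexpression, at 13.1 CPM against 520 CPM.

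The ME-180 library labelled knockdown stood apart from its control in many genes. Across the 7587 genes and on the log2(CPM + 1) scale, the Pearson correlation was 0.81 between the library labelled knockdown and its control, 0.89 between the library labelled knockdown and SiHa vector, 0.86 between SiHa vector and the ME-180 control, and 0.99 between the SiHa pair. These values are across genes, which are not replicates, and genes without a row in either table do not enter them. Of the epithelial and squamous markers, which include TP63 and SPINT1, 8 of 8 with a row in ME-180 fell by 2-fold or more under the knockdown label. Their summed level was 314 CPM there, 71910 CPM in the control, 3961 CPM in SiHa overexpression and 2321 CPM in SiHa vector. KRT5, with 679522 counts, held most of the sum in the control. KRT8 and KRT18, with 17627 and 14170 counts, held most of the sum in SiHa vector. Of markers of embryonic or fetal kidney, 6 of 8 with a row in ME-180 were higher by 2-fold or more under that label and 1 was lower. The 7 of them with a row in both tables summed to 663 CPM in the library labelled knockdown, 64.9 CPM in the control, 76.8 CPM in SiHa overexpression and 109 CPM in SiHa vector. SALL1 and EYA1 were at 0 in the ME-180 control, with 371 and 180 counts in the library labelled knockdown. PAX8 went the other way, with 1 count under that label and 67 in the control. IGF2BP1 and LIN28B held most of the sum under that label, with 4019 and 1981 counts, against 627 and 2 in the control. Of mesenchymal markers, 6 of 10 were higher by 2-fold or more and 1 lower, of neural markers 4 of 7 and 2, of leukocyte markers 1 of 7 and 2, and of endothelial markers 1 of 4 and 1. These marker counts stand beside 28.6% higher and 18.6% lower by 2-fold or more over all genes with at least 1 CPM in ME-180. Mesenchymal markers (9 genes) summed to 264 CPM in the library labelled knockdown, 163 in the control, 84.9 in SiHa overexpression and 114 in SiHa vector, and neural markers (7 genes) to 164, 41.2, 433 and 331 CPM in the same order. Leukocyte markers (7 genes) summed to 17.5, 58.2, 141 and 132 CPM in that order, with CD3E at 0 in the library labelled knockdown, and endothelial markers (4 genes) to 1.89, 14.4, 1.39 and 0.422 CPM, with CDH5 and TEK at 0 there. These sums also rest on few genes. In SiHa vector, TUBB3 (2996 counts) held most of the neural sum and CD14 (1384 counts) most of the leukocyte sum. In the ME-180 control, COL1A1 (1373 counts) held most of the mesenchymal sum. The part of the differences between the library labelled knockdown and its control in the counts below was not tested.

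Of the 4365 genes with at least 100 counts in the ME-180 control, 152 (3.48%) had at most 3 in the library labelled knockdown. Of the 3871 genes that also had at least 100 in SiHa vector, 56 (1.45%) did. The 51 genes are these 56 without LAMB3, KRT80, IL18, SLCO3A1 and SLC12A8, whose names start with the excluded letters. The library labelled knockdown had 0 counts for 26 of the 51, 1 count for 11, 2 counts for 7 and 3 counts for 7. Together the 51 held 46 counts there and 45145 in the control, or 4.58 against 4178 CPM. In SiHa they held 23405 counts with overexpression and 22446 with the vector, or 1710 against 1580 CPM. For 49 of the 51, every transcript of the gene with a row also had at most 3 counts in the library labelled knockdown, and for GDA and SCNN1A a further transcript had 4. Transcripts of a gene can share reads, so they are not independent measures.

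**Figure D1:**
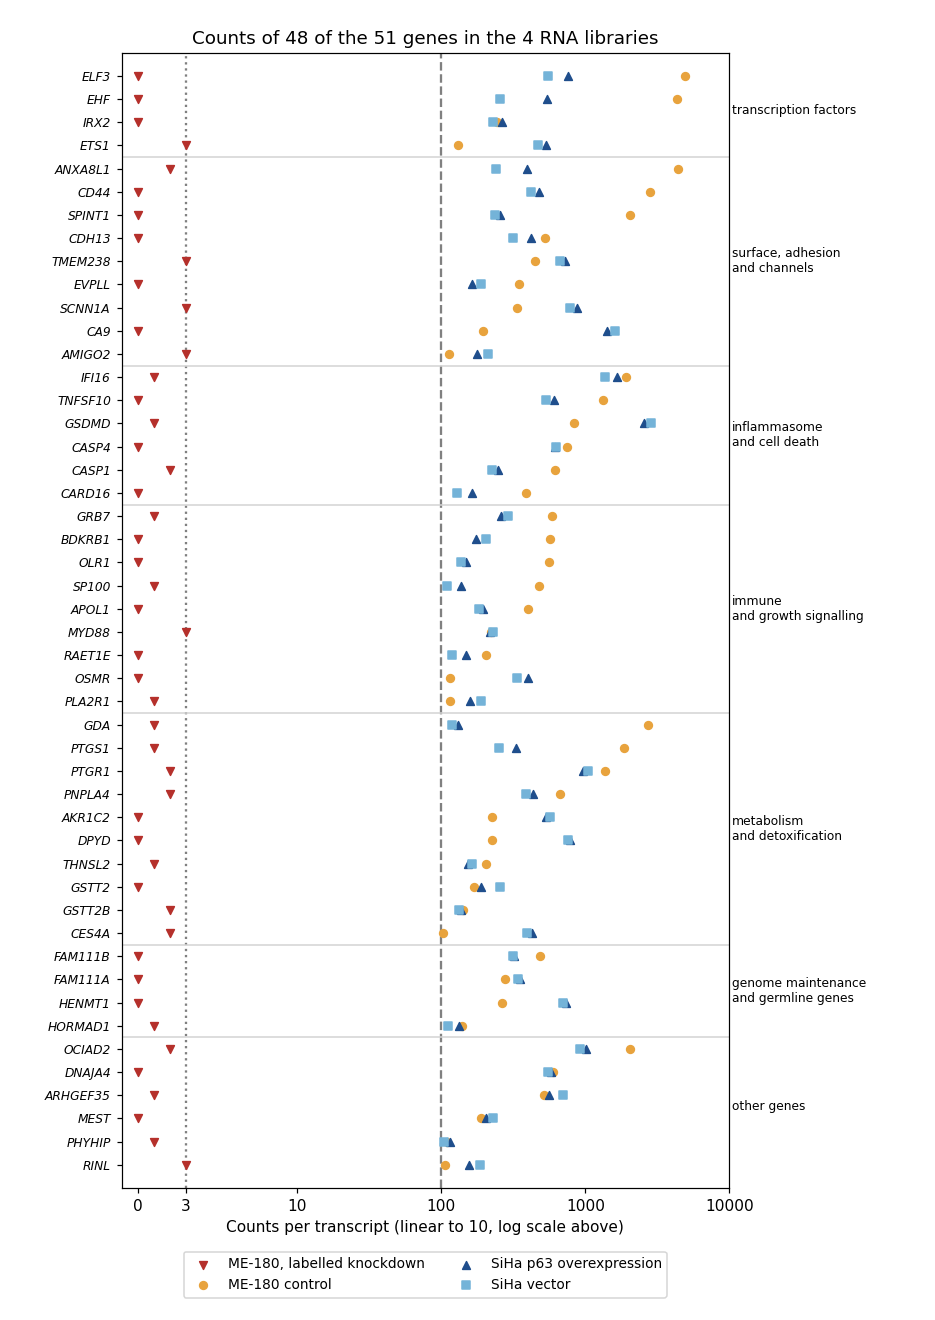
Counts of 48 of the 51 genes in the 4 RNA libraries (x axis, counts per transcript, linear up to 10 and log scale above), by role, with 1 symbol per library and lines at 3 and 100 counts. All 48 sit at 0 to 3 counts in the library labelled knockdown, while their SiHa overexpression and SiHa vector symbols lie close together, from 115 to 2574 and from 105 to 2859 counts.

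At the edges of the rule, the genes inside and outside differed by few counts. CES4A had 102 counts in the ME-180 control and was inside, and ABCC3 had 92 and was outside. PHYHIP had 105 counts in SiHa vector and was inside, and MX1, an interferon-induced antiviral gene, had 96 and was outside. With 3 counts in the library labelled knockdown, AMIGO2, ETS1, MYD88, RINL, SCNN1A and TMEM238 were among those inside, and with 4, ACTL10, ANXA8, BMP2, DECR1, TGFBI and TNK1 were outside.

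Promoters are shown for ELF3, CD44 and CASP4, a transcription factor, a surface receptor and a caspase that had 0 counts in the library labelled knockdown, to give the sequence next to the genes that the results turn on. RefSeq windows of 300 bases (250 before and 50 after the gene's start, build GRCh38.p14) were at hand for 32 of the 51 genes. Capitals mark matches to the core letters of a p53-family site, searched on both strands: CNNG, any 6 bases, then CNNG again, a string that is its own reverse complement. The windows are chr1:202010337-202010636 on the plus strand for ELF3, chr11:35138921-35139220 on the plus strand for CD44 and chr11:104968525-104968824 on the minus strand for CASP4, each written 5′ to 3′ along the gene.
ELF3: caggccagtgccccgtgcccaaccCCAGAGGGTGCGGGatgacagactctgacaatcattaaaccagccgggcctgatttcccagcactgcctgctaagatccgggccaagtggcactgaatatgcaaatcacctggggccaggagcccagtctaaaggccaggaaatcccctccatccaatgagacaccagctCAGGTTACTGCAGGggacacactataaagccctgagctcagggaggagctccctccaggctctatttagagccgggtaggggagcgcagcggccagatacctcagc
CD44: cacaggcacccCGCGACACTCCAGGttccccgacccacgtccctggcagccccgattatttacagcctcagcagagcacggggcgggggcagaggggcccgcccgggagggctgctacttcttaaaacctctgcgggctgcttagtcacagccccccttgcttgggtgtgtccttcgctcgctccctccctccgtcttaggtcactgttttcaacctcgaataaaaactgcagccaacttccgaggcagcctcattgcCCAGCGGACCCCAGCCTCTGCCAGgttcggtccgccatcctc
CASP4: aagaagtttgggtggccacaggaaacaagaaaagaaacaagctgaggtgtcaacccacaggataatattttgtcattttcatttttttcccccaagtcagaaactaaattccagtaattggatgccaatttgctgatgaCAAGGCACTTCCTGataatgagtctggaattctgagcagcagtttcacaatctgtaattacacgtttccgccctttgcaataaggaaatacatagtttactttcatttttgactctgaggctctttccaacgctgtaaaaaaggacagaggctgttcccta
The ELF3 window holds 2 matches, the CD44 window 3, of which the last 2 overlap and appear as 1 run, and the CASP4 window 1. Such matches were as common in the set as elsewhere: 24 of 32 windows (75%) held at least 1, against 73.8% of all 27305 windows. A stricter string, CATG, any 6 bases, then CATG, every match of which is also a match of the first, was in 0 of 32 windows and in 0.392% of all windows. In composition, the windows differed from those of expressed genes more than from all windows. The median ratio of observed to expected CpG was 0.490 in the 32 windows (middle 50% from 0.261 to 0.748), against 0.847 in the 3077 windows of genes with at least 100 counts in both ME-180 control and SiHa vector (0.715 to 0.953). Over all 27305 windows the median was 0.580 (0.222 to 0.859), near that of the set. The median GC content was 61.3% in the set, 65.7% in the expressed genes and 58.3% over all windows. The CpG ratio was 0.269 for ELF3, 0.626 for CD44 and 0.254 for CASP4.

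Among the transcription factors, ELF3 and EHF had far fewer counts in SiHa than in the ME-180 control, and IRX2 and ETS1 did not. ELF3, an ETS-family factor of epithelial cells, had 0 counts in the library labelled knockdown and 4952 in the control. That is 1535-fold lower with the 0 set to a floor of 3 counts, and the 95% interval starts at 1248-fold. In SiHa, ELF3 had 759 counts with overexpression and 554 with the vector, a CPM ratio of 1.42 (95% interval 1.27 to 1.59). EHF, another epithelial ETS factor, had 0 counts in the library labelled knockdown and 4298 in the control, and 545 with overexpression and 257 with the vector in SiHa. Its SiHa ratio of 2.20 (1.89 to 2.56) was the highest of the 51 genes, and every other of the 51 stayed under 2-fold. The Iroquois homeobox gene IRX2 had 0 counts against 245 in ME-180, and 265 with overexpression against 228 with the vector in SiHa. ETS1, the founding ETS factor, had 3 counts against 130 in ME-180, and 533 with overexpression against 470 with the vector, a ratio of 1.18 (1.04 to 1.34). ELF3, EHF, IRX2 and ETS1 thus had more CPM with overexpression than with the vector, by 0.23 to 1.10 on the log2 scale of CPM + 1, and the intervals of their ratios lay above 1. Over the 4251 genes with at least 100 vector counts, 42.9% were above the vector and 16.6% had an interval above 1.

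Surface, adhesion and channel genes made up 10 of the 51, and in SiHa 6 were above and 4 below the vector. Of the 4251 genes with at least 100 vector counts, 42.9% were above it. CD44, the hyaluronan receptor, had 0 counts in the library labelled knockdown and 2828 in the control. That is 877-fold lower with the 0 set to a floor of 3 counts, and the counting interval starts at 712-fold. In SiHa, CD44 had 476 counts with overexpression and 417 with the vector. SPINT1, a membrane inhibitor of matriptase, had 0 counts against 2034 in ME-180, and 257 with overexpression against 235 with the vector. Both genes were present in SiHa at a lower level than in the ME-180 control, with CPM ratios of SiHa vector to ME-180 control of 0.112 for CD44 and 0.0879 for SPINT1. The CD44 transcript was the one with the most ME-180 counts, and its other transcripts had smaller gaps. The smallest gap was 205 counts in the ME-180 control against 104 in SiHa vector. ANXA8L1, an annexin, had 2 counts in the library labelled knockdown and 4370 in the control, and 394 with overexpression and 238 with the vector in SiHa. Its SiHa ratio of 1.72 (1.46 to 2.03) was the second highest of the set. ANXA8, a near-identical copy just outside the rule, had 4 counts against 6530 in ME-180 and 482 against 263 in SiHa, so reads of the pair could not be assigned with certainty. CDH13, a cadherin without a cytoplasmic tail, had 0 counts against 522 in ME-180 and 421 with overexpression against 313 with the vector, a ratio of 1.40 (1.20 to 1.62).

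AMIGO2, a neuronal adhesion protein also made elsewhere, had 3 counts against 112 in ME-180 and 176 with overexpression against 210 with the vector, a ratio of 0.870 (0.708 to 1.07). CA9, a carbonic anhydrase of the cell surface induced by hypoxia, had 0 counts against 196 in ME-180, and 1407 with overexpression against 1601 with the vector, a ratio of 0.912 (0.848 to 0.980). It was the gene with the largest excess in SiHa, with a CPM ratio of SiHa vector to ME-180 control of 6.21 (5.35 to 7.24). SCNN1A, the alpha subunit of the epithelial sodium channel, had 3 counts against 335 in ME-180 and 871 against 785 in SiHa, and TMEM238 had 3 against 445 and 727 against 662. For both, the interval of the SiHa ratio lay above 1, from 1.04 to 1.27 and from 1.02 to 1.27. EVPLL, which resembles the cornified envelope gene EVPL, had 0 counts against 344 in ME-180 and 164 against 189 in SiHa.

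The set held 6 genes of inflammasomes and cell death, among them 2 inflammatory caspases and the gasdermin they cleave. CASP1, the inflammatory caspase that matures interleukins, had 2 counts in the library labelled knockdown and 615 in the control, and 248 with overexpression and 223 with the vector in SiHa. CASP4, the caspase that senses cytosolic lipopolysaccharide, had 0 against 749 counts in ME-180 and 614 against 621 in SiHa, a SiHa ratio of 1.03 (0.916 to 1.15). GSDMD, the gasdermin that both caspases cleave to open membrane pores, had 1 count against 831 in ME-180, 773-fold lower (138 to 30557), and 2574 with overexpression against 2859 with the vector. GSDMD was the only one of the 6 with a higher level in SiHa vector than in the ME-180 control, 201 against 76.9 CPM, and the only one below the vector with overexpression, at a ratio of 0.934 (0.886 to 0.986). CARD16, a decoy protein made of the CASP1 recruitment domain, had 0 counts against 384 in ME-180 and 162 against 128 in SiHa, and since it is nearly identical to part of CASP1, reads of the pair may have been split. IFI16, a nuclear sensor of foreign DNA, had 1 count against 1930 in ME-180, and 1653 with overexpression against 1364 with the vector, a ratio of 1.26 (1.17 to 1.35). TNFSF10, which encodes the death ligand TRAIL, had 0 counts against 1328 in ME-180 and 606 against 534 in SiHa, a ratio of 1.18 (1.05 to 1.33).

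A further 9 genes belong to immune and growth signalling. MYD88, the adaptor of Toll-like and interleukin receptors, had 3 counts in the library labelled knockdown and 221 in the control, and 217 with overexpression and 230 with the vector in SiHa, a ratio of 0.979 (0.810 to 1.18). OSMR, the receptor of oncostatin M, had 0 against 115 counts in ME-180 and 397 against 336 in SiHa, with 2.22 times the ME-180 control CPM in SiHa vector (1.79 to 2.77). SP100, a component of nuclear bodies induced by interferon, had 1 count against 478 in ME-180, and 137 against 109 in SiHa. RAET1E, a stress ligand of the killer cell receptor NKG2D, had 0 against 203 and 149 against 119. The SiHa intervals of OSMR, SP100 and RAET1E lay above 1, from 1.06 to 1.42, 1.01 to 1.69 and 1.01 to 1.67, and those of the other 6 genes spanned 1. These were MYD88, APOL1, an apolipoprotein of innate defence, BDKRB1, a bradykinin receptor, OLR1, a receptor of oxidised lipoprotein, PLA2R1, a phospholipase receptor, and GRB7, an adaptor of growth factor receptors. APOL1, BDKRB1 and OLR1 had 0 counts in the library labelled knockdown and 402, 565 and 563 in the control, and PLA2R1 and GRB7 had 1 count each against 115 and 582. In SiHa, APOL1 had 193 counts with overexpression against 183 with the vector, BDKRB1 173 against 203, OLR1 147 against 137, PLA2R1 157 against 187 and GRB7 258 against 292.

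Metabolism and detoxification gave 10 genes, with 4 of them higher in SiHa vector than in the ME-180 control. This is near the share of 38.5% over the 3871 genes with at least 100 counts in both libraries. PTGS1, the constitutive cyclooxygenase, had 1 count in the library labelled knockdown and 1858 in the control, and 328 with overexpression and 253 with the vector in SiHa, a ratio of 1.35 (1.14 to 1.59). PTGR1, which inactivates prostaglandins and leukotrienes, had 2 counts against 1377 in ME-180 and 959 against 1038 in SiHa. DPYD, the rate-limiting enzyme of pyrimidine breakdown, had 0 counts against 224 in ME-180 and 779 against 761 in SiHa. AKR1C2, an aldo-keto reductase that acts on steroids, had 0 counts against 224 in ME-180 and 536 against 571 in SiHa, where its close relative AKR1C1 had 2349 and 2490. The SiHa ratios of DPYD (0.960 to 1.18), AKR1C2 (0.864 to 1.10) and PTGR1 (0.877 to 1.05) had intervals that spanned 1. GDA, guanine deaminase, had 1 count against 2737 in ME-180 and only 130 against 118 in SiHa, the lowest ratio of SiHa vector to ME-180 control in the set at 0.0328 (0.0270 to 0.0394).

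The glutathione transferases GSTT2 and GSTT2B are near-identical copies, so reads of the pair could not be assigned with certainty. GSTT2 had 0 counts in the library labelled knockdown and 169 in the control, and 187 with overexpression against 257 with the vector in SiHa, a ratio of 0.755 (0.622 to 0.915). GSTT2B had 2 against 142 counts in ME-180 and 136 against 133 in SiHa, a ratio of 1.06 (0.829 to 1.36). PNPLA4, a lipase, had 2 counts against 664 in ME-180 and 433 against 386 in SiHa. CES4A, of the carboxylesterase family, had 2 against 102 and 426 against 392, a SiHa ratio of 1.13 (0.981 to 1.30). THNSL2, related to a threonine synthase, had 1 against 205 and 153 against 164.

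The last 11 genes include 5 of genome maintenance and the germline, all above the vector in SiHa by at most 0.27 on the log2 scale of CPM + 1. The share above the vector was 42.9% over the 4251 genes with at least 100 vector counts. FAM111A and FAM111B, related proteases of which FAM111A acts at replication forks, had 0 counts each against 275 and 484 in ME-180, and 353 and 317 with overexpression against 339 and 312 with the vector. HENMT1, which methylates small RNAs of the germline, had 0 counts against 263 in ME-180 and 730 against 697 in SiHa, a ratio of 1.09 (0.978 to 1.21). HORMAD1, a protein of meiotic chromosomes, had 1 against 139 and 132 against 111. The SiHa intervals of these 4 genes spanned 1.

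The 6 genes left are DNAJA4, a heat shock cochaperone, MEST, an imprinted gene, OCIAD2, ARHGEF35, RINL and PHYHIP. OCIAD2 had 2 counts in the library labelled knockdown and 2041 in the control, and 1006 with overexpression and 915 with the vector in SiHa, a ratio of 1.14 (1.04 to 1.25). ARHGEF35, which shares sequence with ARHGEF5, had 1 against 517 counts in ME-180 and 556 against 700 in SiHa, a ratio of 0.824 (0.736 to 0.923). DNAJA4 and MEST had 0 counts against 592 and 187 in ME-180, and 581 and 203 with overexpression against 553 and 229 with the vector. RINL had 3 against 106 counts in ME-180 and 156 against 184 in SiHa, a ratio of 0.880 (0.706 to 1.10). PHYHIP had 1 against 109 and 115 against 105, a ratio of 1.14 (0.865 to 1.495).

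**Figure D2:**
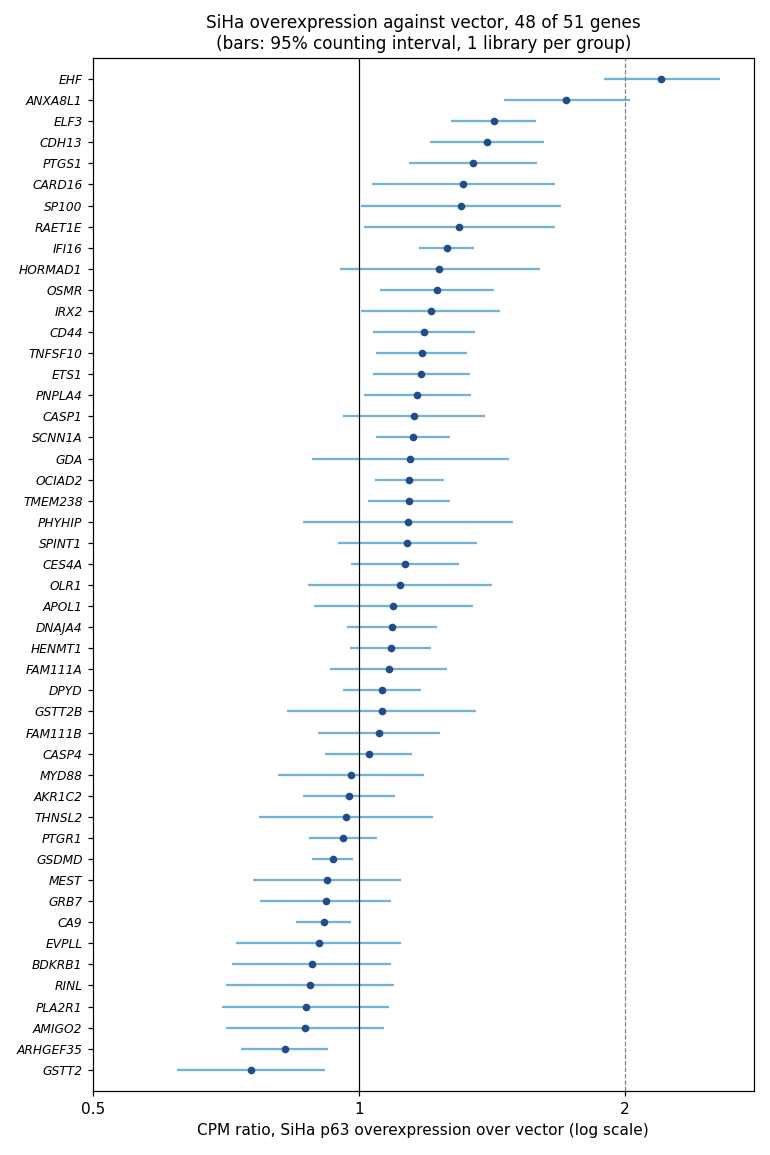
CPM ratio of SiHa p63 overexpression over vector (x axis, log scale) for 48 of the 51 genes, ordered by the ratio, with 95% counting intervals and 1 library per group. EHF at 2.20 is the only gene past 2-fold, and GSTT2 at 0.755 is the lowest of those shown.

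The overexpression library did not enter the choice of the genes, although the vector library did. With p63 overexpressed in SiHa, 1 of the 51 genes was at least 2-fold higher, against 0.0941% of the 4251 genes with at least 100 vector counts, and 0 were at least 2-fold lower, against 0.447%. The 1 gene was EHF, and its other transcript with a row, NM_001206616.1, had 565 against 315 counts and was under 2-fold. Smaller differences leaned upward. The median log2 ratio of the 51 was 0.12 (middle 50% from -0.05 to 0.23), against -0.03 in the 4251 genes, and 35 of 51 (68.6%) were above 0, against 42.9%. The counting interval of the ratio lay above 1 for 18 of 51 (35.3%, against 16.6% of the 4251 genes) and below 1 for 5 (9.80%, against 25.7%). GSTT2, ARHGEF35, CA9 and GSDMD were among the 5. In the authors' deposited table, which has 1 library per group, 0 of the 51 had an adjusted p below 0.05 for this comparison, against 0.211% of all 7587 genes. In the authors' deposited table for ME-180, 51 of 51 were lower with an adjusted p below 0.05, against 20.3% of all genes, which is the contrast that chose them.

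The 96 genes lost in ME-180 in the same way but with under 100 counts in SiHa vector were chosen partly for that low vector count, which is the denominator of the SiHa ratio and by itself raises it. Of these, 39 reached 1 CPM in SiHa. With overexpression 3 were 2-fold higher or more, against 0.584% of all 5649 genes at 1 CPM, and 0 were 2-fold lower or more, against 0.779%, and the median log2 ratio was 0.25 (middle 50% from -0.12 to 0.48). The 3815 genes with at least 100 counts in both ME-180 control and SiHa vector that were not lost had a median of -0.03. Because the sets were cut on opposite sides of the vector count, the 96 genes are given as values and are not compared with the others.

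**Figure D3:**
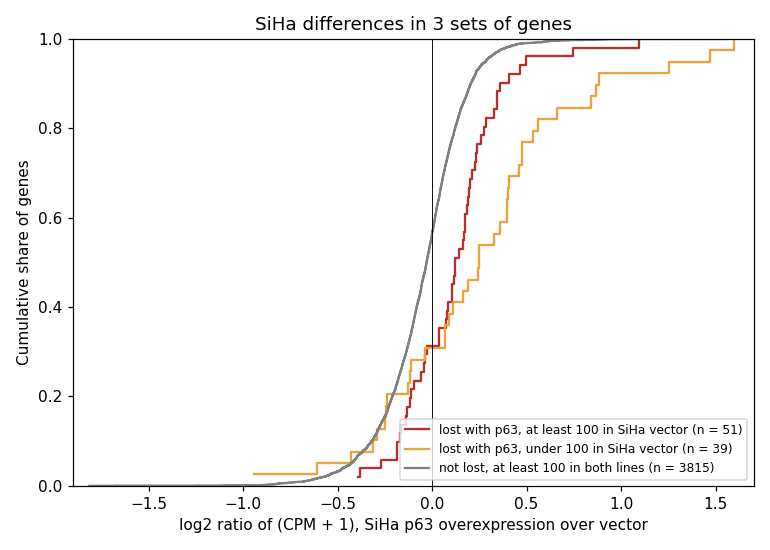
Cumulative share of genes (y axis) by log2 ratio of CPM + 1 in SiHa p63 overexpression over vector (x axis) for the 51 genes, the 39 measured of the 96 genes lost but under 100 counts in SiHa vector, and 3815 genes that were not lost. The curve of the 51 lies to the right of the curve of the genes not lost, with medians of 0.12 and -0.03.

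A gradient in the same direction was present over all genes. The ME-180 and the SiHa comparison share no library. Genes were grouped by their ME-180 difference on the log2 scale of CPM + 1, which shrinks the differences of genes with low counts, so that part of the set falls below 32-fold on this scale although its count ratios are larger. Among genes with at least 100 SiHa vector counts and at least 1 CPM in ME-180, the 62 genes 32-fold lower or more under the knockdown label (29 of them in the set) had a median SiHa log2 ratio of 0.18, and 74.2% were above 0. The 195 genes 4-fold to 32-fold lower, 22 of them in the set, had a median of 0.03. The 2538 genes that differed by less than 2-fold had a median of -0.02, with 44.9% above 0. At the other end, the 232 genes 4-fold to 32-fold higher had a median of -0.18 and the 27 genes at least 32-fold higher a median of -0.47, with 14.8% above 0. Within the 51, the ME-180 control level and the SiHa log2 ratio had a Spearman correlation of 0.34 and a Pearson correlation of 0.48 across the 51 genes, which all rest on the same 3 libraries, and without ELF3, EHF and ANXA8L1 these were 0.21 and 0.23.

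**Figure D4:**
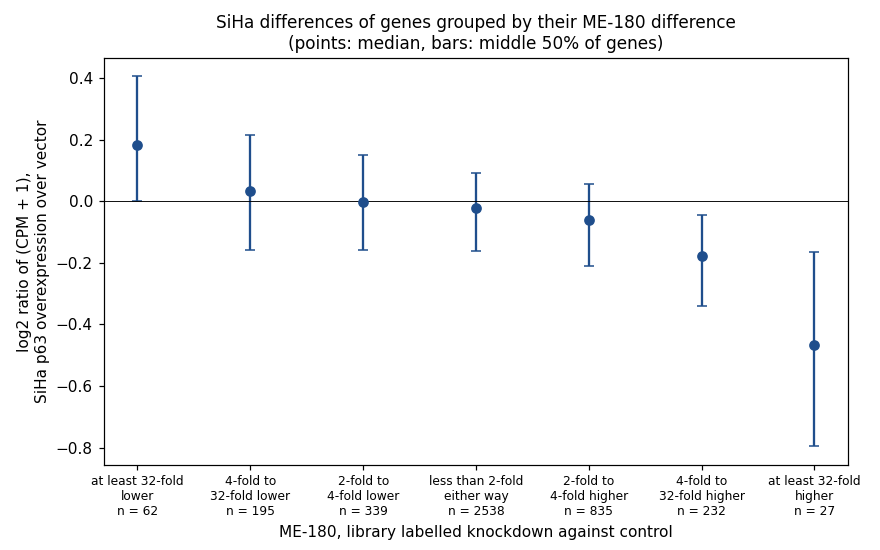
Median and middle 50% (bars) of the SiHa log2 ratio of CPM + 1, overexpression over vector (y axis), of genes with at least 100 SiHa vector counts, grouped by their difference between the library labelled knockdown and the ME-180 control on the same scale of CPM + 1 (x axis). The medians run from 0.18 in the genes at least 32-fold lower to -0.47 in those at least 32-fold higher.

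Set against the ME-180 control, the 51 genes were mostly lower in SiHa vector, but the order depends on scaling. By table totals, 16 of 51 had a higher CPM in SiHa vector, against 38.5% of the 3871 genes with at least 100 counts in both libraries. On the log2 scale of CPM + 1, which is the scale of every 2-fold count given here, 6 were at least 2-fold higher (against 7.31%) and 22 at least 2-fold lower (against 19.4%). The 6 were CA9, CES4A, GSDMD, DPYD, ETS1 and OSMR. The median log2 ratio of SiHa vector to ME-180 control was -0.67 in the 51 and -0.24 in the 3871 genes, a difference of -0.43. With totals taken over the transcripts found in both tables, the medians were -0.18 and 0.27, and 23 of 51 were higher in SiHa, against 63.1% of the 3871. The difference between the medians was then -0.45. The 2 tables were scaled separately and share no library, and the 3 thresholds bear on both values.

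**Figure D5:**
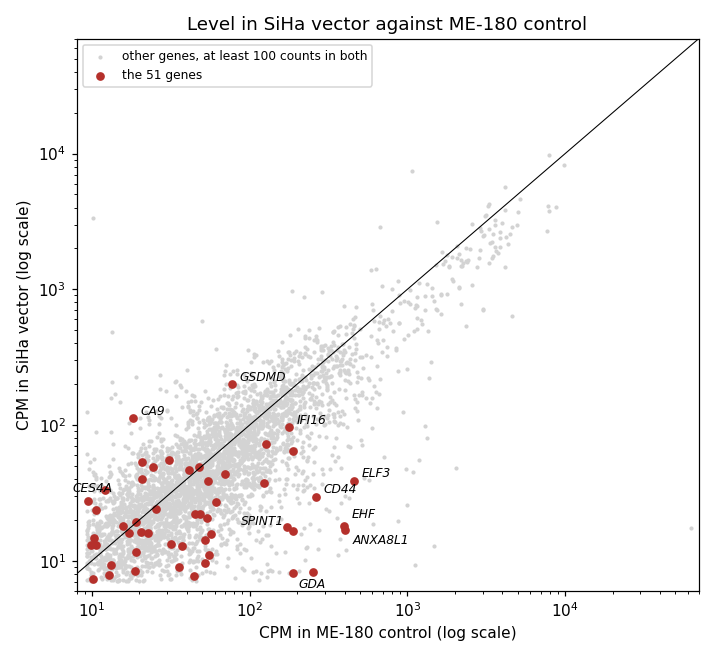
CPM in SiHa vector (y axis, log scale) against CPM in the ME-180 control (x axis, log scale) for the 51 genes and the other genes with at least 100 counts in both, with the line of equal CPM. ELF3, EHF, ANXA8L1 and GDA lie far below the line, and CA9 and GSDMD above it.

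By chromosome, no test of placement was made. Chromosome 11 held 8 of the 51 (15.7%), against 5.45% of the genes with at least 100 counts in both lines, chromosome 1 held 7 (13.7%, against 10.2%), and every other chromosome with any held 1 to 4. The 8 on chromosome 11 include neighbouring genes. On chromosome 11, CARD16 and CASP1 are adjacent protein-coding genes in the GRCh38.p14 annotation, and 1 protein-coding gene lies between CASP1 and CASP4. FAM111A and FAM111B are also adjacent, and CD44 and EHF lie with 2 protein-coding genes between them. PDHX, a subunit of pyruvate dehydrogenase that lies between EHF and CD44, had 520 counts in the library labelled knockdown and 446 in the control. No counts are given here for the other protein-coding gene between them. Whether placement has a part in the loss was not tested.

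Gene lists of related functions show the surroundings of the set in ME-180. Over all genes with at least 1 CPM in ME-180, 18.6% were 2-fold lower or more and 28.6% 2-fold higher or more in the library labelled knockdown. The median log2 ratio was 0.32, or 0.06 with trimmed-mean scaling. Of the epithelial transcription factors, a list that includes TP63 itself, 8 of 9 measured were lower and 0 higher (median -6.40). Beside ELF3 and EHF these include ESRP1, an epithelial splicing factor, with 0 against 902 counts in ME-180 and 21 against 12 in SiHa, which left it out of the set. Of the epithelial surface and junction genes, 15 of 16 were lower (median -5.79), and ANXA8L1 and SPINT1 were among those in the set. PKP1, a desmosome plaque protein, had 1 against 9585 counts in ME-180, and 94 against 63 in SiHa, under the minimum of the rule. In the interferon and antigen presentation list, 16 of 20 were lower and 0 higher (median -2.05), with CASP1, CASP4 and IFI16 in the set. OAS1, which makes the activator of an antiviral nuclease, had 0 against 254 counts in ME-180 and 39 against 38 in SiHa, and TRIM22 had 0 against 186 and 156 against 44.

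The remaining lists held few or none of the 51. Of the NF-kB and inflammatory list, 9 of 16 measured were lower and 4 higher, at a median of -1.36, with TNFSF10 in the set and BIRC3, an inhibitor of apoptosis, at 2 against 184 counts in ME-180 and 111 against 56 in SiHa. Of the detoxification and redox list, 9 of 16 measured were lower and 2 higher, at a median of -1.74. AKR1C2 was in the set, while NQO1, a quinone reductase, had 62 against 6852 counts in ME-180 and 19109 against 19968 in SiHa, too many in the library labelled knockdown for the rule. Of the lysosome, membrane and trafficking list, which held CD44, 5 of 7 measured were lower and 1 higher, at a median of -1.93. Lists with none of the 51 were squamous differentiation (9 of 11 lower, 0 higher, median -3.71), growth factor signalling (10 of 14 and 0, -2.22), EGF receptor family (4 of 5 and 0, -2.18), proteases (8 of 12 and 2, -1.94), basal matrix and anchor genes (2 of 4 and 0, -1.64), TGF-beta and YAP genes (9 of 13 and 2, -1.44), cytoskeleton and calcium-binding genes (6 of 11 and 0, -1.26) and the p53 family (2 of 3 and 0, -1.09). The p53 family list also includes TP63. In SiHa, 0.584% of all genes were at least 2-fold higher with overexpression and 0.779% at least 2-fold lower. Of 8 epithelial transcription factors 2 were higher, EHF and TP63, and TP63 is the overexpressed gene and no response. EHF was under 2-fold by its other transcript. Of 20 interferon and antigen presentation genes, 3 were higher. The NF-kB list had 4 of 18 lower, and the epithelial surface list had 0 of 13 in either direction.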

How the data were processed

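The 4 RNA libraries used here came from ME-180 and SiHa cells. Total RNA was extracted with TRIzol, per the labels' protocols. Build hg19 and the tools DESeq2, TopHat and Cufflinks stand in the submitters' processing notes, without roles. The sources used here give no counting method or strand setting, so overlapping and antisense genes cannot be told apart. The authors deposited 1 table per cell line with whole-number counts per RefSeq transcript (15189 and 16600 rows), with their own log2 fold change and p-values, from tables with 1 library per group. The p63 peak list was not used here, since no gene coordinates of its build were at hand.

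Tables were joined on the transcript identifier (13206 transcripts). Spreadsheet dates in place of names (32 and 31 rows) were replaced through the identifier. Counts were scaled to CPM by each library's sum over its table. Common genes such as RPS2 have a row in the SiHa table and none in the ME-180 table, so these sums are not sequencing depths. Ratios have exact conditional binomial intervals (scipy 1.17.1), and log2 ratios use a pseudocount of 1 CPM. A gene counted as higher or lower at 2-fold with at least 1 CPM in a library. Alternative scaling used edgeR 4.0.16. Calling rules were tested on simulated data. Of the 51 members, 48 are named, and 3 are not reported here by name. Counts with the interval of the SiHa ratio were given for the 12 members with the most SiHa vector CPM, the 4 highest and 4 lowest SiHa ratios and those at a threshold, except where not reported, and most others were added after their values were seen. Members and lists were chosen with earlier results of these data known.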

Additional observations from a re-analysis of the deposited data

How the results depend on the processing

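The set had 51 genes, 29 with a minimum of 200 counts, 26 with no count allowed in the library labelled knockdown, and between 43 and 73 under the 5 other settings tried, 1 of which, leaving out genes with a near-identical or related copy, was chosen after seeing the data. The 1 gene past 2-fold in SiHa (EHF) became 0 with a pseudocount of 5 CPM and 0 with the transcript of most SiHa counts. No gene was at least 2-fold lower under any of the 5 alternatives run for it, and the median SiHa log2 ratio stayed between 0.11 and 0.16. The median log2 ratio of SiHa vector to ME-180 control, -0.67 by table totals, was -0.18 by the total over shared transcripts and -0.28 with trimmed-mean factors over them. With a pseudocount of 1 CPM the floor of 1 CPM cannot change a 2-fold call, so dropping it was no test. No paired analysis was possible because each group had 1 library, and for the same reason no replicate could be left out. A count of 0 to 3 in the library labelled knockdown limits each ratio there to a bound or a wide interval.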

Other observations

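The opposite pattern was also present in ME-180. Of the 3871 genes with at least 100 counts in the ME-180 control and SiHa vector, 56 (1.45%) were lost. Of the 3925 genes with at least 100 in the library labelled knockdown and SiHa vector, 24 had at most 3 in the ME-180 control. The 24 include LIN28B, a blocker of let-7 maturation, with 1981 counts against 2 in ME-180 and 174 with overexpression against 416 with the vector in SiHa. They also include SMOC1, a matricellular protein, with 825 against 0 and 378 against 730. Of the 3858 genes with at least 100 counts in both ME-180 libraries, 0 had at most 3 in SiHa vector. Of the 4365 genes with at least 100 in the ME-180 control, 66 had at most 3 in SiHa vector. Among genes with at least 100 in the library labelled knockdown, 3 did, and the share was not computed. Genes without a row in both tables do not enter these numbers. LIN28B and SMOC1 were chosen after their values were seen.

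Of the 5 genes left out by their names, LAMB3, a laminin chain of basement membrane anchors, had 0 counts in the library labelled knockdown and 3571 in the control, and 1206 with overexpression and 858 with the vector in SiHa. IL18, an interleukin matured by CASP1, had 0 against 1141 and 373 against 270. KRT80 had 2 against 1462 and 227 against 121.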
